A study of Homo sapiens with 6 samples.

Results

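The genes described here are 54 components of the machinery that starts and copies DNA: the origin licensing factors, the MCM helicase and its activators, the replicative polymerases and primase, the sliding clamp and its loaders, the enzymes that finish lagging-strand fragments, the single-strand binding protein RPA, the CAF-1 histone chaperone and the proteins that guard the fork. They were picked by gene symbol from the deposited tables, and all 54 were found among 57861 usable genes. RNA was sequenced from MOLP-8, a widely used cell line of human multiple myeloma, a cancer of plasma cells. Cells of the LIN28B KO group carried a lentiCRISPRv2 vector with a guide against LIN28B, and control cells carried the same vector with a scrambled guide, and all were selected with puromycin in serum-containing medium. The condition label calls the targeted group KO, whereas its sample titles say KD. Each group had 3 libraries, 6 in all. The labels do not say whether each library is its own culture, nor whether the cells were cloned, so p-values speak of the spread among these 6 libraries, and that spread may be technical.

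LIN28B binds precursors of let-7 microRNAs and keeps them from maturing, and the study asked what its targeting does in myeloma cells along the LIN28B/let-7 axis. Replication begins when the origin recognition complex, CDC6 and CDT1 load MCM helicase rings onto DNA in G1. In S phase the kinase CDC7-DBF4 and the cyclin-dependent kinases recruit CDC45 and GINS to the rings, which then unwind DNA ahead of the polymerases. Transcription of many of these genes is driven by E2F factors and is highest around the G1/S transition, so their mRNA levels are widely used as a readout of proliferation.

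Values are FPKM, fragments scaled to transcript length and library size. The targeted gene was examined before the members. LIN28B stood at 8.41, 8.17 and 5.84 FPKM in LIN28B KO libraries 1 to 3, against 23.3, 24.3 and 25.5 FPKM in control libraries 1 to 3, and it fell by 1.66 on the log2 scale (standard error, SE, 0.17; adjusted p = 0.0207 in limma's fit of all 6 libraries). Its direction was the same in every alternative, but the call was lost with no filter (adjusted p = 0.142), with a replicate block (0.0604) and on dropping a control or LIN28B KO library 1 or 2 (0.0675 to 0.185). The mean in LIN28B KO cells was 30.7% of that in controls. The 7 plasma cell genes checked were abundant in every library, from 63.4 FPKM for PRDM1 to 1049 FPKM for XBP1. Of 9 genes of other cell types, CD3D was listed at 0 throughout and CD3E, CD14, LYZ, EPCAM, ALB and HBB reached at most 1.27 FPKM. COL1A1, of fibroblasts, had 1.43, 1.61 and 4.77 FPKM in the LIN28B KO libraries and 1.26, 0.925 and 0.761 FPKM in controls. NCAM1, which NK cells and many myeloma cells carry, had 84.6 to 93.4 FPKM in the LIN28B KO libraries and 55.4 to 65.2 FPKM in controls, and the part of these cells in the results was not tested. LIN28B KO library 3 stood apart. It had 17676 genes at 1 FPKM or more, against 15932 and 15922 in LIN28B KO libraries 1 and 2 and 15356 to 15430 in the controls. Its median log2 ratio to the control mean over all 15803 tested genes was -0.35, against -0.01 in each of LIN28B KO libraries 1 and 2. What set it apart was not tested. Results are therefore given for all 6 libraries and for the 5 libraries without it. The 5-library fit was restricted to 11308 protein-coding genes.

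Fold changes of the replication genes pointed to lower levels in LIN28B KO cells in every functional class. In 46 of the 54 members all 3 LIN28B KO values lay below all 3 control values, and in 0 members did they lie above. The same was true of 20.1% of all tested genes and of 29.3% of the 7373 protein-coding genes whose control mean fell within the range of the members, 8.72 to 225.5 FPKM. The median log2 fold change of the members, on the log2(FPKM + 0.5) scale used for every fold change here, was -0.54 with all 6 libraries, against -0.13 over all tested genes. Without LIN28B KO library 3 it was -0.46, against -0.04 over all tested genes. All 54 members had a log2 fold change below 0 in each of these fits, as did 66.5% and 57.3% of all genes. After cyclic loess scaling of all 6 libraries 52 were below 0, and ORC4 and RFC1 stood at 0.02 and 0.06. In bulk RNA, fewer cells in S phase and less of these mRNAs per cell cannot be told apart.

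**Figure D1:**
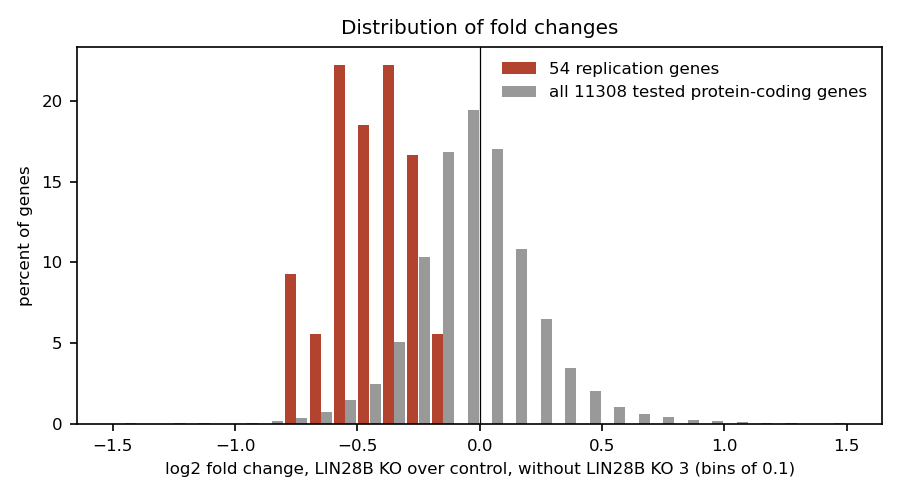
Log2 fold changes (LIN28B KO over control, without LIN28B KO library 3, bins of 0.1) of the 54 replication genes in red and of all 11308 tested protein-coding genes in grey, each as a percent of its own genes. All 54 members lie below 0, with a median of -0.46, and the grey bars centre near -0.04.

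With all 6 libraries, limma called 0 of the 54 members at an adjusted p under 0.05 (background 0.0316% of genes called lower), the smallest member value being 0.203. At an unadjusted p under 0.05 it had 42 members lower, against 8.73% of all genes. Without LIN28B KO library 3, 27 of the 54 members fell and 0 rose, where 3.02% of all protein-coding genes fell and 1.08% rose. Among protein-coding genes in the range of member levels 3.51% fell. These calls rest on the choice of genes and libraries. When the same 5 libraries were fitted with all 15336 genes that passed the filter, FEN1 was the only member called (background 0.267%), although the median was again -0.46. When a further library was left out of the fit on protein-coding genes, 0 members and 0 protein-coding genes passed.

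LIN28B KO library 3 had lower values than the other LIN28B KO libraries for most members, and also for other genes of like level. As deposited, the median log2 ratio of the 54 members to the control mean was -0.44, -0.42 and -0.82 in LIN28B KO libraries 1 to 3. In protein-coding genes in the same range of levels the medians were -0.06, -0.06 and -0.48. Cyclic loess scaling, which removes a trend with level between libraries, brought those background medians to -0.01, -0.01 and -0.02, and the members then stood at -0.41, -0.37 and -0.34. The member medians of the 3 LIN28B KO libraries were thus close to each other after that scaling, and the control medians lay between -0.02 and 0.02. Single members were less even: 0, 1 and 5 of the 54 lay above every control in LIN28B KO libraries 1 to 3. In the 7373 protein-coding genes in the same range of levels these counts were 2385, 2367 and 2594. With cyclic loess, the 3 LIN28B KO values lay below the 3 control values in 40 of 54 members (background 13.3%). It gave 5 members called lower with all 6 libraries (background 0.342%), namely CDT1, MCM2, POLA2, FEN1 and CHAF1A, and 13 without LIN28B KO library 3 (background 1.17%). Those 13 were CDT1, ORC2, GMNN, MCM2, MCM3, MCM10, POLA2, POLD3, RFC3, FEN1, CHAF1A, ASF1B and CLSPN. Weighting the 6 libraries by their fit, which gave LIN28B KO library 3 a weight of 0.103 and the others 1.11 to 2.23, called 8 members lower (background 0.652%).

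**Figure D2:**
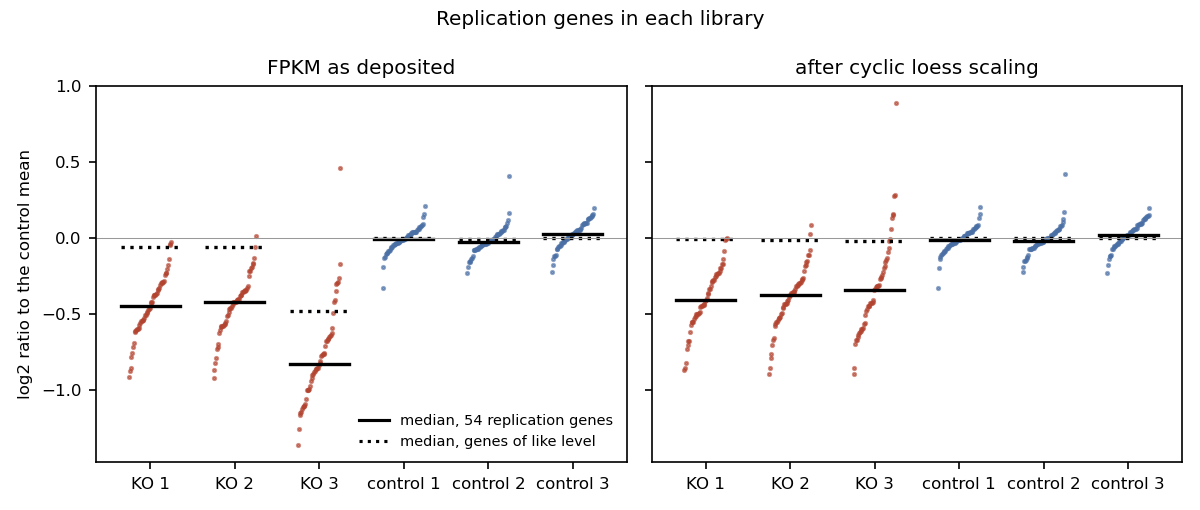
Log2 ratio of each of the 54 replication genes to its control mean, one column of points per library, as deposited (left) and after cyclic loess scaling (right), with LIN28B KO libraries in red and controls in blue. Solid bars mark the median of the members and dotted bars that of protein-coding genes of like level. Member medians of the LIN28B KO libraries are -0.44, -0.42 and -0.82 on the left and -0.41, -0.37 and -0.34 on the right.

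**Figure D3:**
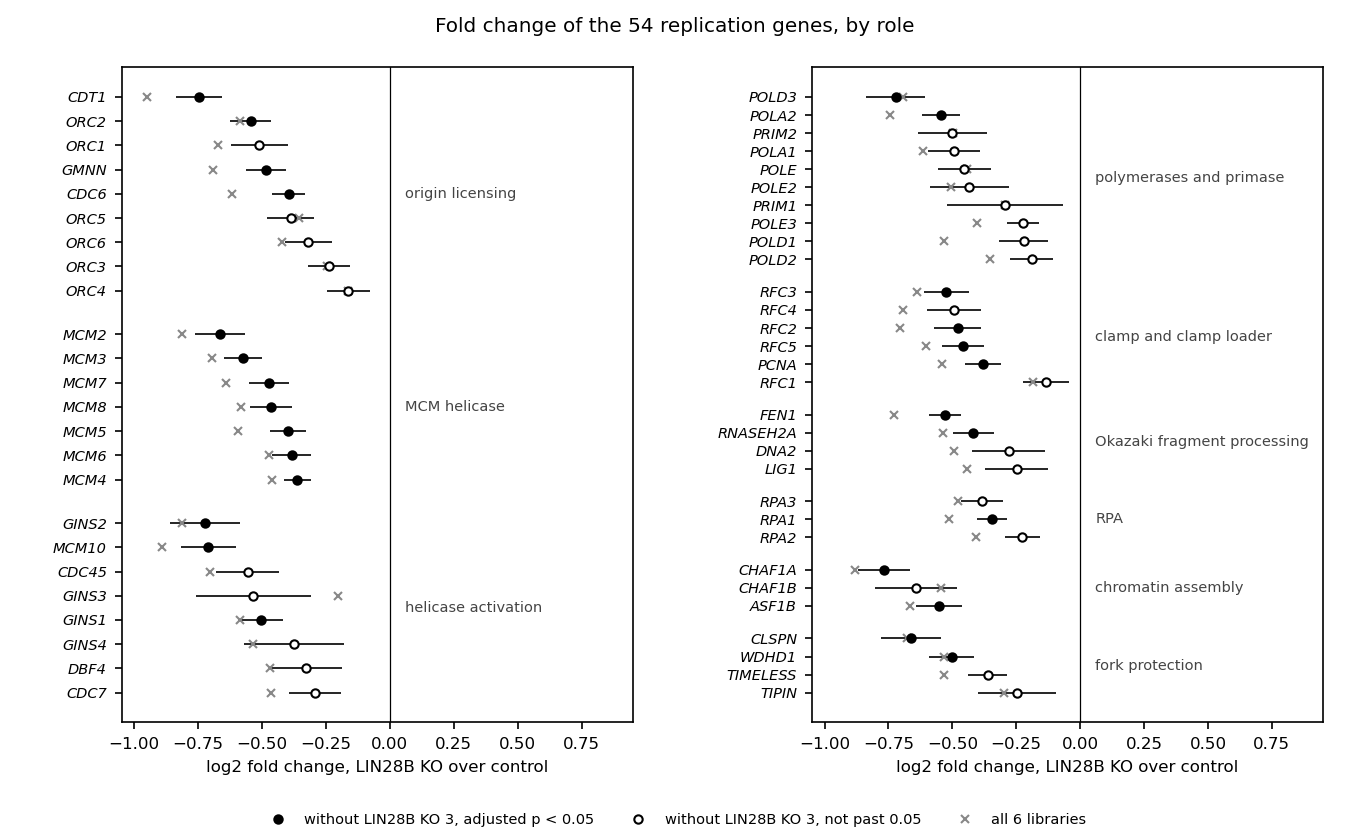
Log2 fold change of LIN28B KO over control for each of the 54 genes, grouped by role. Circles with bars give the value and SE without LIN28B KO library 3, filled where the adjusted p was under 0.05 (27 genes), and crosses the value with all 6 libraries. All circles and crosses lie left of 0 on these deposited values, whereas ORC4 and RFC1 were above 0 after cyclic loess scaling of all 6 libraries.

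Origin licensing genes number 9, and in all 9 the deposited LIN28B KO values lay below the control values. The same was true of 29.3% of protein-coding genes in the range of member levels. After cyclic loess of all 6 libraries, LIN28B KO library 3 lay below every control in 6 of the 9 and above every control in 3. Without LIN28B KO library 3, CDT1, ORC2, CDC6 and GMNN fell and the other 5 did not pass, where 3.02% of all protein-coding genes fell. After cyclic loess of those libraries CDC6 did not pass (adjusted p = 0.0533). When all genes were tested in them, 0 of the class passed. CDT1, which loads MCM rings together with CDC6, had the lowest fold change of the class. CDT1 (ENSG00000167513, chromosome 16, 88869621 to 88875666 of GRCh37, as are all gene positions here) stood at 24.9, 26.0 and 16.5 FPKM in the LIN28B KO libraries, against 40.2, 41.7 and 47.5 FPKM in the controls. The highest LIN28B KO value was well under the lowest control. Without LIN28B KO library 3 it fell 1.68-fold (-0.75 on the log2 scale, SE 0.09, adjusted p = 0.0246), and with all 6 libraries the log2 fold change was -0.95 (adjusted p = 0.226). Fold falls and SEs (log2 scale) of single members are from the fit without that library unless another is named. GMNN, geminin, binds and inhibits CDT1 after origins have fired, and it averaged 32.5 ± 7.73 FPKM in LIN28B KO cells and 51.8 ± 2.56 FPKM in control cells (SD, n = 3 each). It fell 1.40-fold (SE 0.08, adjusted p = 0.0326), as its target CDT1 did.

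CDC6, the ATPase that works with the origin recognition complex, was the most abundant licensing transcript. It was at 44.8, 43.3 and 27.7 FPKM in the LIN28B KO libraries and at 57.8, 56.9 and 59.8 FPKM in controls, 1.32-fold lower (SE 0.06, adjusted p = 0.0320). Controls were tight, and the LIN28B KO spread came from library 3. The 6 subunits of the origin recognition complex were uneven. ORC2, a core subunit, had 18.6, 17.1 and 16.2 FPKM in the LIN28B KO libraries, against 25.5, 26.0 and 27.02 FPKM in controls (1.46-fold lower, SE 0.08, adjusted p = 0.0289). ORC1, the subunit whose abundance changes through the cell cycle, was the scarcest of all members, at 5.37 ± 1.17 FPKM in LIN28B KO cells and 8.72 ± 0.282 FPKM in control cells (SD, n = 3 each; log2 fold change -0.51, SE 0.11, adjusted p = 0.0582). ORC3 and ORC4, also core subunits, had the values nearest 0, at log2 fold changes of -0.24 (SE 0.08) and -0.16 (SE 0.08) and adjusted p of 0.148 and 0.296, while ORC5 and ORC6 were at -0.39 and -0.32 (adjusted p = 0.0707 and 0.103). After cyclic loess with all 6 libraries, LIN28B KO library 3 lay above every control for ORC3, ORC4 and ORC5, at log2 ratios of 0.15, 0.29 and 0.13, while LIN28B KO libraries 1 and 2 lay below every control.

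MCM2 to MCM7 form the ring that unwinds DNA, and all 6 fell without LIN28B KO library 3, as did the relative MCM8, which acts in repair by homologous recombination. Of the 9 roles it was the only one in which every member was called in that fit, where 3.02% of all protein-coding genes fell. After cyclic loess of the same libraries MCM2 and MCM3 were the members called. When all genes were tested in those 5 libraries, 0 of the class passed. Log2 fold changes ran from -0.66 in MCM2 to -0.36 in MCM4. MCM4 (chromosome 8, 48872745 to 48890720) was the most abundant of the 54 transcripts, with 174, 177 and 142 FPKM in the LIN28B KO libraries, against 226, 217 and 234 FPKM in controls. It was 1.28-fold lower (SE 0.05, adjusted p = 0.0289), but did not pass after cyclic loess of those 5 libraries (adjusted p = 0.0551). MCM3 (ENSG00000112118, chromosome 6, 52128807 to 52149679) had the smallest p of the class without LIN28B KO library 3. It had 48.1, 49.5 and 37.9 FPKM in the LIN28B KO libraries and 68.8, 72.0 and 78.1 FPKM in controls. The fall was 1.49-fold (-0.57 on the log2 scale, SE 0.07, adjusted p = 0.0249) and held with cyclic loess of those 5 libraries (adjusted p = 0.0325). It did not pass with cyclic loess of all 6 libraries (adjusted p = 0.0514) or with all genes in the 5 libraries (0.0605).

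The 6 ring subunits assemble in equal copy number, yet their transcripts were not equal. In controls the order was MCM4 at 225.5 ± 8.58, MCM7 at 116 ± 5.57, MCM5 at 75.6 ± 3.17, MCM3 at 72.98 ± 4.76, MCM6 at 49.0 ± 2.94 and MCM2 at 43.6 ± 3.41 FPKM (SD, n = 3 each). MCM5 and MCM3 did not differ beyond their spread. In LIN28B KO cells the order was MCM4 at 164 ± 19.2, MCM7 at 75.1 ± 15.3, MCM5 at 50.7 ± 11.5, MCM3 at 45.1 ± 6.34, MCM6 at 35.3 ± 3.77 and MCM2 at 24.8 ± 4.61 FPKM, which is the same order. FPKM is scaled to length, but other differences between genes in how fragments are read and assigned were not tested. The order is therefore that of the deposited estimates only.

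Helicase activation involves 8 members, of which MCM10, GINS1 and GINS2 fell without LIN28B KO library 3, where 3.02% of all protein-coding genes fell. After cyclic loess of those 5 libraries MCM10 passed (adjusted p = 0.0377), and GINS1 and GINS2 did not (0.055 and 0.0556). When all genes were tested in the 5 libraries, 0 of the class passed. MCM10, which is needed to start unwinding at loaded helicases, was at 12.7, 10.9 and 7.91 FPKM in the LIN28B KO libraries, against 18.1, 19.6 and 20.9 FPKM in controls (1.64-fold lower, -0.71 on the log2 scale, SE 0.11, adjusted p = 0.0297). It is on chromosome 10, from 13203554 to 13253104. CDC45, the partner of MCM and GINS in the active helicase, had the highest control mean of the class, with 17.2, 21.5 and 14.01 FPKM in the LIN28B KO libraries and 29.2, 30.6 and 25.9 FPKM in controls. The groups did not overlap, but the test was missed (log2 fold change -0.56, SE 0.12, adjusted p = 0.0582). GINS1, a subunit of the GINS tetramer, was at 17.9, 20.2 and 16.0 FPKM in the LIN28B KO libraries, against 26.1, 28.2 and 27.4 FPKM in controls (1.42-fold lower, SE 0.09, adjusted p = 0.0360).

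The other GINS subunits were less even. GINS2 fell 1.65-fold (SE 0.14, adjusted p = 0.0402), and GINS4 had overlapping groups and stood at -0.38 on the log2 scale (SE 0.20, adjusted p = 0.305). GINS3, named here after its values were seen, went against the other members in LIN28B KO library 3: it had 11.3, 17.9 and 28.9 FPKM in the LIN28B KO libraries and 16.5, 23.5 and 23.3 FPKM in controls. LIN28B KO library 3 was the highest of the 6, and the groups overlapped (log2 fold change -0.20 with all 6 libraries, adjusted p = 0.770, and -0.53, SE 0.23, adjusted p = 0.222 without that library). Its deposited bounds were wide, 20.4 to 37.3 FPKM in LIN28B KO library 3 against 17.1 to 29.9 FPKM in control library 2. The kinase CDC7 and its activator DBF4 had log2 fold changes of -0.29 (SE 0.10) and -0.33 (SE 0.14) and did not pass (adjusted p = 0.156 and 0.224).

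**Figure D4:**
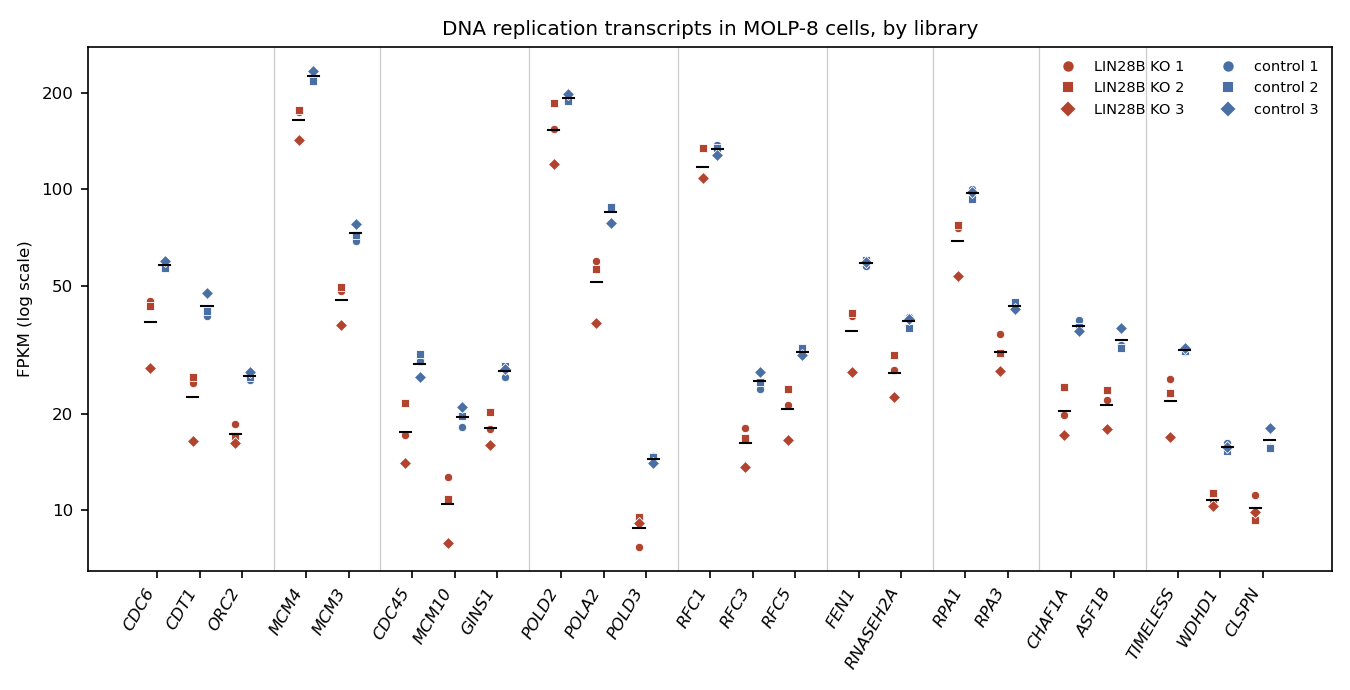
FPKM (log axis) of 23 replication genes in each library, grouped by role with grey lines between roles, LIN28B KO in red left of control in blue; marker shapes give the library number and black bars the group means. RFC1 has groups that overlap, and in the other 22 genes all LIN28B KO points lie below all control points. Most of the 23 were picked for a small p in these same data, which favours groups that do not overlap. Over all 54 members the count was 46, and the share of protein-coding genes in the range of member levels was 29.3%.

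Among the polymerases and primase, 10 members, POLA2 and POLD3 fell and 8 did not pass, where 3.02% of all protein-coding genes fell. When all genes were tested in the same 5 libraries, 0 of the class passed. POLA2, the regulatory subunit of the polymerase alpha-primase complex that lays down the primers, was at 59.7, 56.4 and 38.2 FPKM in the LIN28B KO libraries and at 88.1, 88.3 and 78.7 FPKM in controls (1.46-fold lower, SE 0.08, adjusted p = 0.0266). POLA2 lies on chromosome 11 from 65029233 to 65073060. POLD3, an accessory subunit of the lagging-strand polymerase delta, was at 7.68, 9.54 and 9.14 FPKM in the LIN28B KO libraries, against 14.7, 14.6 and 14 FPKM in controls (1.65-fold lower, SE 0.11, adjusted p = 0.0313). Unlike most members it was not lowest in LIN28B KO library 3. POLD2, another delta subunit and the most abundant transcript of the class, had 154, 185 and 120 FPKM in the LIN28B KO libraries and 191, 188 and 198 FPKM in controls (log2 fold change -0.19, SE 0.08, adjusted p = 0.232). Within polymerase delta the log2 fold changes were thus -0.72 in POLD3, -0.22 in POLD1, the catalytic subunit, and -0.19 in POLD2, and the difference between subunits was not tested.

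POLE, the catalytic subunit of the leading-strand polymerase epsilon, averaged 30.4 ± 1.22 FPKM in LIN28B KO cells and 41.5 ± 4.50 FPKM in control cells (SD, n = 3 each; log2 fold change -0.45, SE 0.10, adjusted p = 0.0652). POLA1, the catalytic subunit of polymerase alpha, just missed the threshold (log2 fold change -0.49 with SE 0.10, adjusted p = 0.0502). The accessory subunits POLE2 and POLE3 and the primase subunit PRIM2 were at -0.43, -0.22 and -0.50, with adjusted p of 0.163, 0.0942 and 0.0930, and PRIM2 has a near-identical partial copy in the genome, so its value is uncertain. PRIM1, the primase catalytic subunit, was the member of this class whose groups overlapped, with 29.2, 20.6 and 24.4 FPKM in the LIN28B KO libraries and 26.4, 40.3 and 25.8 FPKM in controls. Its high value came from control library 2.

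The clamp and clamp loader hold 6 members, of which PCNA, RFC2, RFC3 and RFC5 fell, where 3.02% of all protein-coding genes fell. After cyclic loess of those 5 libraries RFC3 passed (adjusted p = 0.0496). PCNA, RFC2 and RFC5 then did not (0.0834, 0.0726 and 0.0614). When all genes were tested in the 5 libraries, 0 of the class passed. PCNA is the ring that tethers polymerases to DNA, and the RFC complex opens it and places it at primer ends. PCNA averaged 66.1 ± 12.1 FPKM in LIN28B KO cells and 95.3 ± 5.64 FPKM in control cells (SD, n = 3 each; 1.30-fold lower without LIN28B KO library 3, SE 0.07, adjusted p = 0.0386). RFC3 was at 18.1, 16.8 and 13.6 FPKM in the LIN28B KO libraries, against 23.8, 25.2 and 26.98 FPKM in controls (1.44-fold lower, SE 0.09, adjusted p = 0.0337). RFC5 was at 21.3, 23.9 and 16.6 FPKM in the LIN28B KO libraries and at 31.1, 32.1 and 30.5 FPKM in controls (1.37-fold lower, SE 0.08, adjusted p = 0.0368). RFC4, another small subunit, missed the threshold, with a log2 fold change of -0.49 (adjusted p = 0.0549). RFC1, the large subunit of the loader and the most abundant of the class, had 109.5, 134 and 108.5 FPKM in the LIN28B KO libraries and 137, 134 and 128 FPKM in controls, so the groups overlapped. RFC1 was at -0.13 on the log2 scale (SE 0.09, adjusted p = 0.433), and at 0.06 (adjusted p = 0.834) with cyclic loess on all 6 libraries, a change of sign.

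Lagging-strand fragments are finished by FEN1, LIG1, DNA2 and RNASEH2A, and FEN1 and RNASEH2A fell, where 3.02% of all protein-coding genes fell. After cyclic loess of those 5 libraries FEN1 passed (adjusted p = 0.0279) and RNASEH2A did not (0.0731). FEN1 (ENSG00000168496, chromosome 11, 61560109 to 61564716), the nuclease that trims displaced flaps, had the smallest adjusted p of all 54 members without LIN28B KO library 3. In limma's fit of all 6 libraries CHAF1A had the smallest (0.203, against 0.264 for FEN1). FEN1 was at 40.3, 41.2 and 26.9 FPKM in the LIN28B KO libraries, against 57.5, 60.2 and 59.3 FPKM in controls. Libraries of a group were close to each other except LIN28B KO library 3, and FEN1 was 1.44-fold lower (-0.53 on the log2 scale, SE 0.06, adjusted p = 0.0226). RNASEH2A, the catalytic subunit of the enzyme that removes ribonucleotides, was at 27.4, 30.5 and 22.5 FPKM in the LIN28B KO libraries and at 40.0, 36.9 and 39.5 FPKM in controls (1.34-fold lower, SE 0.08, adjusted p = 0.0439). LIG1, the ligase that seals the fragments, and DNA2, a nuclease for long flaps, had groups that overlapped and log2 fold changes of -0.25 (SE 0.12, adjusted p = 0.281) and -0.28 (SE 0.14, adjusted p = 0.296).

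RPA coats single-stranded DNA behind the helicase. RPA1, its large subunit, was at 75.5, 77.2 and 53.5 FPKM in the LIN28B KO libraries, against 99.99, 93.4 and 97.9 FPKM in controls, and fell 1.27-fold (SE 0.06, adjusted p = 0.0347). RPA3, the smallest subunit, was at 35.4, 30.8 and 27.1 FPKM in the LIN28B KO libraries and at 43.1, 44.4 and 42.3 FPKM in controls (log2 fold change -0.38, SE 0.08, adjusted p = 0.0546). RPA2, the middle subunit, was at -0.23 on that scale (SE 0.07, adjusted p = 0.114). All 3 subunits had LIN28B KO values below the control values, as did 29.3% of protein-coding genes in the range of member levels. RPA1 and RPA3 differed in fold change by less than 1 SE.

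Histones are put back behind the fork by CAF-1, whose subunits include CHAF1A and CHAF1B, with ASF1B as the donor chaperone. This small class had the lowest median log2 fold change of the 9 roles without LIN28B KO library 3, at -0.64. CHAF1A (chromosome 19, 4402659 to 4445015) was at 19.7, 24.1 and 17.2 FPKM in the LIN28B KO libraries, against 39.2, 37.2 and 36.2 FPKM in controls, and its fold change was the lowest of all members without LIN28B KO library 3 (1.70-fold lower, -0.77 on the log2 scale, SE 0.10, adjusted p = 0.0249). ASF1B was at 22.1, 23.7 and 17.9 FPKM in the LIN28B KO libraries and at 32.7, 32.0 and 36.9 FPKM in controls (1.47-fold lower, SE 0.09, adjusted p = 0.0329). CHAF1B averaged 7.28 ± 1.43 FPKM in LIN28B KO cells and 10.7 ± 1.03 FPKM in control cells (SD, n = 3 each), and did not pass (log2 fold change -0.64, SE 0.16, adjusted p = 0.0775).

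Of the 4 genes that stabilise forks, CLSPN and WDHD1 fell without LIN28B KO library 3, where 3.02% of all protein-coding genes fell. After cyclic loess of those 5 libraries CLSPN passed (adjusted p = 0.0496) and WDHD1 did not (0.0506). When all genes were tested in the 5 libraries, 0 of the class passed. CLSPN encodes claspin, which relays fork stress to the checkpoint kinase CHK1, and it was at 11.2, 9.34 and 9.87 FPKM in the LIN28B KO libraries, against 15.8, 15.6 and 18.1 FPKM in controls (1.58-fold lower, SE 0.12, adjusted p = 0.0368). WDHD1, which ties polymerase alpha to the helicase, was at 10.6, 11.3 and 10.3 FPKM in the LIN28B KO libraries and at 16.2, 15.2 and 15.8 FPKM in controls (1.42-fold lower, SE 0.09, adjusted p = 0.0360). Its 6 deposited values formed 2 tight groups, LIN28B KO library 3 included. After cyclic loess of all 6 libraries, WDHD1 stood at log2 ratios of -0.52, -0.43 and -0.20 in LIN28B KO libraries 1 to 3 (limma adjusted p = 0.159). TIMELESS, of the fork protection complex, was at 25.6, 23.2 and 16.9 FPKM in the LIN28B KO libraries and at 31.1, 31.3 and 32.1 FPKM in controls (log2 fold change -0.36, SE 0.08, adjusted p = 0.0538). Its partner TIPIN had overlapping groups and stood at -0.25 on the log2 scale (SE 0.15, adjusted p = 0.386). A two-sided exact permutation test on any 1 member, with 3 values a group, gives p = 0.1 at the least, and this was its value wherever groups did not overlap.

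A list of 42 further genes of replication and its control held none of the members, and with all 6 libraries 0 of them passed and 20 were lower at an unadjusted p under 0.05. The share of all tested genes lower at that unadjusted p was 8.73%. Of the 41 that were tested without LIN28B KO library 3, 7 fell, 0 rose and 34 did not pass, where 3.02% of all protein-coding genes fell and 1.08% rose, with a median log2 fold change of -0.26, and UHRF1 was not matched as protein-coding. When all genes were tested in these 5 libraries, 1 of them was called. The smallest p was that of KIAA0101, which encodes a PCNA-binding protein: it was at 69.0, 64.9 and 45.1 FPKM in the LIN28B KO libraries and at 99.7, 94.98 and 103 FPKM in controls (1.48-fold lower, SE 0.06, adjusted p = 0.0226). NASP, a histone chaperone, had 103, 101 and 71.8 FPKM in the LIN28B KO libraries, against 128, 126 and 134 FPKM in controls (adjusted p = 0.0329). SSRP1, a subunit of the FACT histone chaperone, had 57.3, 53.5 and 38.6 FPKM in the LIN28B KO libraries, against 69.7, 71.2 and 68.3 FPKM in controls (adjusted p = 0.0425). In 7 of the 41 the log2 fold change was above 0, and 0 of those passed. They include MCM9, the partner of MCM8 in repair, at 0.29 (adjusted p = 0.229), named after its value was seen.

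Promoters of the members were read for the binding sequence of E2F factors. RefSeq promoters of GRCh38.p14, 250 bases before to 50 bases after the start site, were matched by symbol for 47 of the 54 members. The E2F motif, searched on both strands as TTTCCCGC, TTTGGCGC, TTTGCCGC or TTTCGCGC, was present in 19 of the 47 (40.4%), against 5.62% of 8676 promoters of tested protein-coding genes and 3.31% of all 35116 promoters. The 19 members with the motif had a median log2 fold change of -0.49 without LIN28B KO library 3, and the 28 without it -0.44. Of these, 13 and 11 fell, where 3.02% of all tested protein-coding genes fell. The share among all genes with the motif was not computed, and the difference between the 2 sets was not tested. Matches on the 2 strands overlapped in MCM2 and MCM6. A match is a description of these letters only. For CDC6, CDT1, MCM3, GINS1, POLA2, RFC3 and CLSPN, which are among the 19 and given above with their values in each library, the stretches that hold it are shown, printed on the strand of the gene with the motif, read on either strand, in capitals:
CDC6 (chr17:40287875-40287904, plus strand): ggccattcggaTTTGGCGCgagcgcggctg
CDT1 (chr16:88803743-88803772, plus strand): ccagggcgcccGCGGGAAAtttggcgggaa
MCM3 (chr6:52284728-52284757, minus strand): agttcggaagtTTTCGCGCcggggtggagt
MCM3 (chr6:52284898-52284927, minus strand): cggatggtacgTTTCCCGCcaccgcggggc
GINS1 (chr20:25407667-25407696, plus strand): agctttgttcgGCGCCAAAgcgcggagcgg
POLA2 (chr11:65261898-65261927, plus strand): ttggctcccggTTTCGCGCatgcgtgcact
RFC3 (chr13:33818083-33818112, plus strand): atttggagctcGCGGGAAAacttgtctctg
CLSPN (chr1:35769965-35769994, minus strand): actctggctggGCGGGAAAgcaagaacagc

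Other motifs stood nearer to their background. CCAAT, the box bound by NF-Y, was in 27 of the 47 promoters (57.4%), against 37.4% of those of tested genes. The E-box CACGTG, which MYC and related factors bind, was in 8 (17%), against 10.6%. The cell cycle element TTTGAA or TTCGAA, known from genes of G2 and M phase, was in 3 (6.38%), against 11.2%.

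The members were also searched for matches to the let-7 seed, since let-7 is what LIN28B restrains. The let-7 family shares its seed, bases 2 to 8, shown in capitals in hsa-let-7b-5p (chr22:46113691-46113712 of GRCh38.p14, plus strand):
hsa-let-7b-5p: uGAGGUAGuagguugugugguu
In the longest 3′ UTR of each gene in GENCODE 29, CTACCTC or TACCTCA was found in 5 of the 54 members (9.26%), namely ORC4, MCM8, PRIM2, RFC1 and RNASEH2A, against 18% of 11188 tested protein-coding genes. Median UTR lengths were 1008 bases in the members and 1368 bases in the tested genes, so the members offered less sequence. MCM8 and RNASEH2A fell without LIN28B KO library 3 and the other 3 did not pass, where 3.02% of all tested protein-coding genes fell. The sites of the pair that are given above with all 6 values, with the seed match in capitals, are:
RFC1 (chromosome 4): ctcagaggtctgtgCTACCTCtgtgaggta
RNASEH2A (chromosome 19): agtcaggctgctctCTACCTCctgacctca
CDT1, MCM10, CHAF1A, POLD3 and GINS2, whose fold changes were the 5 lowest of the set without LIN28B KO library 3, had no such match in that UTR.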

How the data were processed

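Total RNA of 6 MOLP-8 libraries, 3 LIN28B KO and 3 control, was made into libraries with a NEBNext kit, per the labels' protocols. GRCh37 and the tools cutadapt, TopHat2 and HTSeq are named per the submitters' processing notes. Their versions, the strand setting and the program behind the tables: not given in the sources used here. The authors deposited 1 table per library of gene FPKM, with bounds on each value, per the file headers. Rows of the same gene were summed and 25 genes with a failed estimate left out.

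Groups were compared on log2(FPKM + 0.5) in limma 3.58.1 under R 4.3.3, using its variance trend and no covariates. Genes reaching 1 FPKM in 3 or more libraries entered. Adjusted p is Benjamini-Hochberg over every gene entered, called under 0.05. The script was tested on simulated data. Protein-coding genes are those of GENCODE 29 with the same identifier. Depth was estimated from the deposited bounds (2 SDs above the value) as if they held counting error only. It came to 4808210 to 5596934 fragment equivalents in LIN28B KO libraries and 6310855 to 8368315 in controls. Some bounds were wider than counting error: RNASEH2B, at 21.9 to 132.8 FPKM, came to 7 to 14 fragment equivalents. The sums are therefore no count of fragments, and the bounds do not cover spread between libraries. Gene loci are those of the files with 1-based starts. Alternatives were other pseudocounts, no filter, cyclic loess, quantile normalization, array weights, a replicate block and leaving out libraries.

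The members, lists and tests were chosen with earlier results of these data known. The members named by rule, with a value in every library, are, per role, the one with the highest control mean and the 2 with the smallest p without LIN28B KO library 3; others, such as GINS3 and PRIM1, are named after their values were seen. Of the other replication genes, the 3 with the smallest p are given.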

Additional observations from a re-analysis of the deposited data

How the results depend on the processing

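With all 6 libraries, the count of called members was 0 and moved to 5 with cyclic loess and 8 with array weights, and the count of other replication genes, 0, moved to 1 and 1. Calls in either direction over all 15803 genes were 15, and 111 with cyclic loess and 170 with array weights. Leaving out 1 library at a time gave 0 to 1 called members, 0 to 1 called other genes and medians of -0.64 to -0.46. LIN28B KO library 3 is the one whose removal gave 1 call. Members with groups that did not overlap numbered 46 to 50. That count cannot fall when a library is dropped, so it is no check. Its share over all genes, 20.1% with all 6 libraries, was not computed for these fits. RFC1 changed sign with cyclic loess (0.0559). Without LIN28B KO library 3, 27 members and 7 other genes were called, where 463 of all 11308 genes were called in either direction. No filter gave 1 and 0 (24 of 17117 genes), and all genes in place of protein-coding ones 1 and 1 (64 of 15336). Cyclic loess gave 13 and 1 (254 of 11308), quantile normalization 12 and 1 (247 of 11308), and array weights 22 and 2 (277 of 11308). The members called with cyclic loess or quantile normalization were all among the 27. The median was -0.40 with cyclic loess and -0.40 with quantile normalization, against -0.46. Leaving out a further library gave 0 to 0 calls in both sets and medians of -0.45 to -0.42, and RFC1 ranged from -0.2786 to 0.0125, changing sign without LIN28B KO library 1; where 1 LIN28B KO library remained, it was assumed to vary like the controls. Except where a library or a scaling is named here, the cause was not tested. Deviations of libraries with equal replicate numbers correlated at -0.02, 0.04 and -0.03, and those with unequal numbers at -0.08 to 0.09. Deviations from means of 3 libraries cannot settle whether equal numbers share a batch. A replicate block gave 0 members and 0 other genes without LIN28B KO library 3, with a median of -0.44, and moved neither count of called genes, 0 each, with all 6, though LIN28B itself then missed the threshold (adjusted p = 0.0604). Precision is limited by 3 libraries a group and, for GINS3, GINS4, POLE2, DNA2 and PRIM2, by wide deposited bounds.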
